A study of Mus musculus with 7 samples.

Results

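The genes described here, 9 in all, write, erase or protect DNA methylation, and were followed in mouse oocytes with and without SETD1B, a methyltransferase of histone H3 lysine 4. They were the DNA methyltransferase genes Dnmt1, Dnmt3a and Dnmt3b, the cofactor Dnmt3l, the Dnmt1 recruiter Uhrf1, the 5-methylcytosine oxidase genes Tet1, Tet2 and Tet3, and Dppa3, which encodes the protein also called STELLA. Their transcripts were picked by gene name, without any use of their levels, from a table of 33437 oocyte transcripts. The genes themselves were chosen with earlier results of these data known. A transcript was accepted where the gene that the table names lay on the strand of the transcript, which found 7 of the 9 genes with 1 transcript each. For Dnmt3b and Dnmt3l the table names an overlapping gene on the other strand (Dnmt3bos and Aire), and these transcripts were identified from the span of the GENCODE M21 gene on their own strand. They shared 0.697 and 0.994 of the union of both spans.

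RNA was sequenced from single germinal vesicle (GV) oocytes, which are fully grown and still arrested in meiotic prophase, of C57BL6 females aged 21 days (C57BL/6OlaHsd in the study's methods). The labels give all females as Setd1b floxed/floxed, with Gdf9-Cre positive for the 4 Setd1b cKO libraries and negative for the 3 Setd1b WT libraries, and each library came from 1 oocyte. The study's methods also admit females that were heterozygous for the deleted allele and carried Gdf9-Cre as Setd1b WT, and the labels mark no library as such. Gdf9-Cre excises in oocytes from early folliculogenesis, by the study's account, so that Setd1b was intact in both genotypes before that stage. Which of the oocytes came from the same mother is not in the labels, and p-values therefore measure the spread between these oocytes.

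CpG methylation is copied onto new DNA strands by DNMT1, which UHRF1 brings to hemimethylated sites. New methylation is laid down in growing oocytes by DNMT3A together with DNMT3L, a relative that lacks catalytic activity, whereas DNMT3B acts mainly after implantation. STELLA keeps UHRF1 out of the oocyte nucleus and protects the maternal genome after fertilisation, when TET3 from the egg oxidises 5-methylcytosine in the zygote.

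The libraries held 8582493 to 12972366 mapped reads, and 1 read was worth 0.0771 to 0.117 RPM, the unit of the table (reads in a transcript, relative to all mapped reads). Reads outside the oocyte transcripts made up 14.6% ± 1.30 (SD, n = 4) of the Setd1b cKO libraries and 9.73% ± 0.165 (SD, n = 3) of the Setd1b WT libraries. Setd1b itself, read over its whole transcript including exons outside the floxed segment, lay at 8.31, 16.7, 12.8 and 2.68 RPM in Setd1b cKO and at 17.7, 16.3 and 8.61 RPM in Setd1b WT, so its level gave no check of the genotype labels (log2 fold change -0.61 ± 0.49 (SE), limma adjusted p = 0.533). Of 13 oocyte markers in the table, 12 were at 1 RPM or more in every library, and Sohlh1, a factor of early follicles, had 0 reads in all. Their sums overlapped, at 11150 to 16700 RPM in Setd1b cKO and 15780 to 21650 RPM in Setd1b WT, while 11 of the 12 tested had a log2 fold change below 0 and Mos passed the threshold (-1.34, limma adjusted p = 0.00581). Setd1b cKO replicate 4 and Setd1b WT replicate 3 stood apart from their groups: in the chi-square of reads per degree of freedom they differed less from each other (39.2) than from any library of their own genotype (42.9 to 79.6 and 51.0 to 59.6). This measure grows with depth, and they had the fewest mapped reads of their genotypes (8582493 and 10688295). Results are also given with both of these libraries left out, an alternative chosen after seeing the data. The summed granulosa markers (19 of 20 in the table) were higher in Setd1b cKO, at 84.9 to 100.3 RPM, than in Setd1b WT, at 57.5 to 76.2 RPM. Nr5a2 was higher in every Setd1b cKO library (32.5 to 50.8 RPM) than in any Setd1b WT library (27.4 to 28.3 RPM), Inha reached 0.583 to 13.2 RPM against 0 to 4.32 RPM, and the defining genes Amh and Foxl2 stayed at or below 0.174 RPM. Cyp19a1, the most abundant of the list after Nr5a2, averaged 26.6 ± 5.13 RPM in Setd1b cKO and 22.8 ± 5.19 RPM in Setd1b WT (SD) with overlap. None of the 8 granulosa genes tested passed the threshold, and 1 of them, Kitl, had a log2 fold change below 0. Other somatic markers (7 of 10 in the table) had overlapping sums of 13.0 to 27.3 RPM in Setd1b cKO and 16.9 to 23.4 RPM in Setd1b WT, but Cd68, a macrophage marker, was past the threshold, with 4.62 to 13.1 RPM against 2.16 to 3.74 RPM (log2 fold change 1.37, limma adjusted p = 0.0435). Pecam1, the most abundant of them, averaged 11.9 RPM in Setd1b cKO and 17.3 RPM in Setd1b WT with overlap, and the other 5 stayed below 1 RPM in every library. The part of RNA from other cells in the values below was not tested.

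Dppa3, Uhrf1 and Dnmt1 were the most abundant of the 9 genes once reads were divided by the annotated exon length of the gene, and the minor TET genes the least. Per kilobase of GENCODE exon (RPKM), Setd1b WT oocytes held 9525 ± 2184 for Dppa3, 108 ± 11.2 for Uhrf1 and 95 ± 4.91 for Dnmt1 (SD, n = 3). By mean RPM, Dppa3 ranked at place 3 among all transcripts in the table. Next came Dnmt3l at 29.2 ± 5.61, Tet3 at 11.2 ± 1.28 and Dnmt3a at 5.46 ± 0.999 RPKM in Setd1b WT. Dnmt3b at 1.95 ± 0.505, Tet1 at 0.498 ± 0.207 and Tet2 at 0.181 ± 0.0613 RPKM were the low members. In this order the Setd1b WT libraries of Uhrf1 and Dnmt1 overlapped, and those of every other pair of neighbours did not. The order depends on the divisor, which counts every annotated exon base of a gene, whether or not the oocyte transcript holds it. In RPM, Dnmt3a (90.9 ± 16.6) and Dnmt3l (87.2 ± 16.8) lay close together in Setd1b WT (SD, n = 3).

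In Setd1b cKO oocytes the order was the same down to Dnmt3b. Uhrf1 averaged 88.0 ± 21.9 RPKM and Dnmt1 39.1 ± 2.32 RPKM (SD, n = 4), and here their libraries did not overlap. Tet2 at 0.324 ± 0.0623 and Tet1 at 0.231 ± 0.138 RPKM stood in the opposite order to Setd1b WT, with overlapping libraries. All 9 genes passed the filter of at least 1 RPM in at least 3 libraries, but Tet1 and Tet2 did so with 15 to 139 and 20 to 69 reads per library, against 2547 to 8923 reads for Dnmt1.

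**Figure D1:**
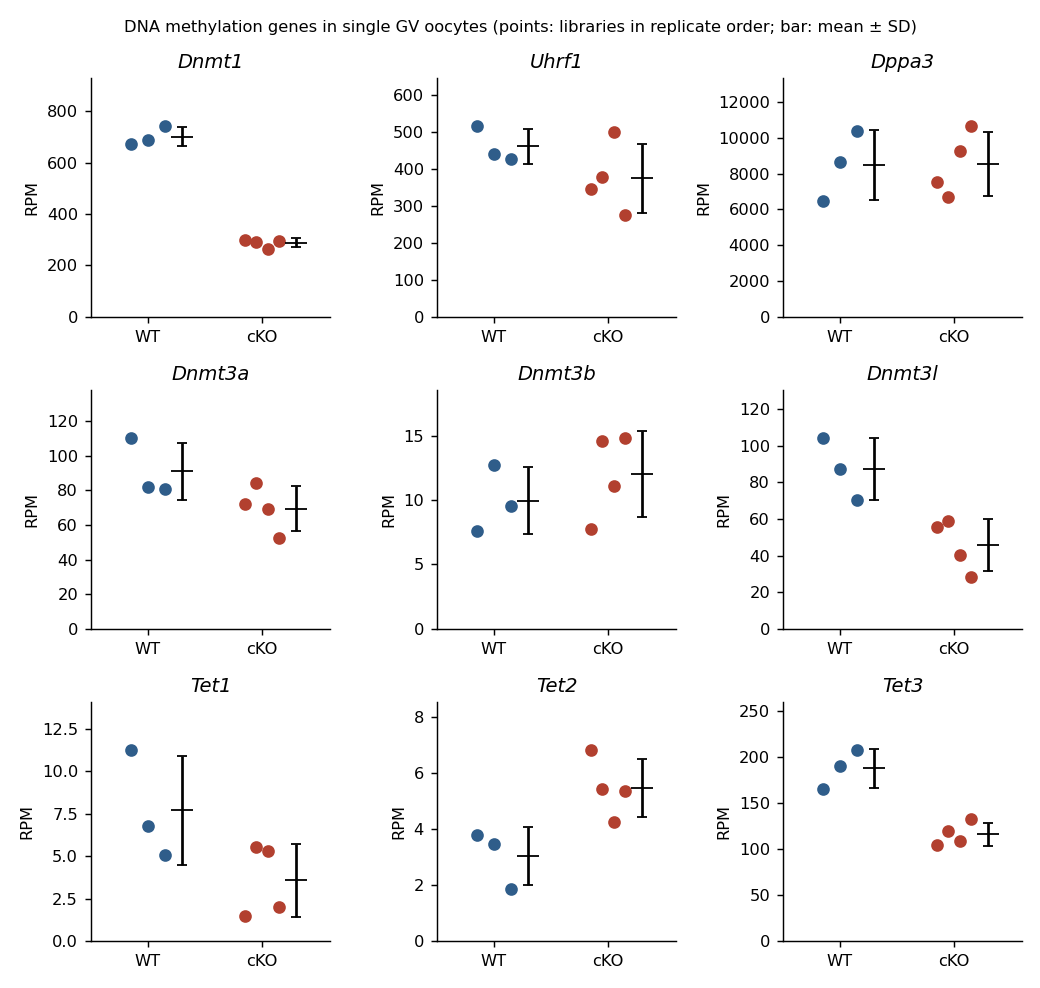
Level of each of the 9 genes in RPM, on linear axes that start at 0, in the 3 Setd1b WT (blue) and 4 Setd1b cKO (red) libraries, with 1 point per oocyte and the mean ± SD of the group in black beside it. The Setd1b cKO libraries of Dnmt1, at 263 to 300.2 RPM, sit below all Setd1b WT libraries, at 673 to 742 RPM, while those of Dppa3 overlap.

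Dnmt1 was the only one of the 9 genes past the threshold, which asked for more than a 2-fold difference at an adjusted p under 0.05. It was lower in Setd1b cKO, as were 1.95% of the 18179 genes tested, and none of the 9 was higher, against 3.76% of all genes. Transcripts of 3 members (Dnmt1, Dnmt3l and Tet3) were lower in every Setd1b cKO library than in any Setd1b WT library, as in 7.14% of all genes, and Tet2 was higher in the same sense, as in 13.2%. Together these 4 genes stand against 20.3% of all genes whose libraries did not overlap in either direction. Fold changes were below 0 on the log2 scale for 6 of the 9 genes and for 39.7% of all genes, with medians of -0.39 and 0.12. At an unadjusted p under 0.05, 5 of the 9 genes passed, and 21.7% of all genes. With Setd1b cKO replicate 4 and Setd1b WT replicate 3 left out, Dnmt1 was again the 1 member past the threshold (log2 fold change -1.25, limma adjusted p = 0.000463). The other 8 kept the sign of their log2 fold change, which was -0.89 for Dnmt3l, -0.68 for Tet3, -1.06 for Tet1, 0.47 for Tet2, -0.34 for Dnmt3a, 0.12 for Dnmt3b, -0.24 for Uhrf1 and 0.05 for Dppa3.

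Dnmt1 (ENSMUSG00000004099, minus strand, chr9:20907206-20960182, GRCm38), the maintenance methyltransferase gene, had 300.2, 293, 263 and 297 RPM in the 4 Setd1b cKO oocytes. The 3 Setd1b WT oocytes had 673, 688 and 742 RPM. Each genotype formed a tight cluster, with an SD of 5.93% of the mean in Setd1b cKO and 5.16% in Setd1b WT, and the gap between the clusters exceeded both. Dnmt1 fell by 1.28 on the log2(RPM + 1) scale (SE 0.19, 95% interval -1.70 to -0.86, limma adjusted p = 0.00545), and its Setd1b cKO mean was 41.1% of the Setd1b WT mean. It is among the abundant transcripts of the oocyte: 98.6% of the genes tested had a lower mean RPM, and 1.84% had a lower log2 fold change.

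Oocytes are known to transcribe Dnmt1 from a start of their own, upstream of the somatic one. The 5′ end of the deposited transcript lay 294 bases before the upstream RefSeq start and 7203 bases before the next. Isoforms were merged in the table, so the start that supplied the reads cannot be told from these values. The 150 bases before each start are printed to show how the CpG content differs between them, in the direction of the gene and with every CG in capitals (RefSeq, GRCm38.p6, minus strand). The first is chr9:20959889-20960038 and the second chr9:20952980-20953129.
Dnmt1, upstream start: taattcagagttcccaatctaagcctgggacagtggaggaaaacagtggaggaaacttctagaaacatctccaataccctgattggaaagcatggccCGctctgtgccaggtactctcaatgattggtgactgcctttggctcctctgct
Dnmt1, downstream start: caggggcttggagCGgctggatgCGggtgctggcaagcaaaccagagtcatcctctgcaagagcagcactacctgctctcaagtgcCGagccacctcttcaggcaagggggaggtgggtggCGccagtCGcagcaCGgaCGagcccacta
The stretch next to the upstream start holds 1 CG and the other 7. Counted over 250 bases, the upstream window had 2 CG and the downstream window 7, and 29.0% and 57.0% of 32851 RefSeq windows of that length held no more. A further start, 7559 bases from the 5′ end, had 26 CG in its window.

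Uhrf1 (plus strand, chr17:56302960-56325035), whose protein recruits DNMT1, was read at 346, 378, 499 and 276 RPM in Setd1b cKO and at 516, 441 and 427 RPM in Setd1b WT. The groups overlapped, since Setd1b cKO replicate 3 lay above Setd1b WT replicates 2 and 3. The log2 fold change of -0.33 ± 0.24 (SE, 95% interval -0.85 to 0.20) did not pass the test (limma adjusted p = 0.482).

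Within a library, the log2 ratio of Dnmt1 to Uhrf1 does not depend on how the library was scaled, apart from the pseudocount. It was -0.20, -0.37, -0.92 and 0.10 in Setd1b cKO and 0.38, 0.64 and 0.79 in Setd1b WT. The genotypes did not overlap, with means of -0.35 ± 0.43 and 0.61 ± 0.21 (SD) and a difference of -0.95. Such a difference equals the gap between the log2 fold changes of the genes in the ratio, here and for the ratios below. It is therefore no independent result. The two-sided exact permutation test gave p = 0.0571, the smallest that 4 against 3 libraries allow, and an adjusted value of 0.0857 over the 3 ratios examined.

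Dppa3 (plus strand, chr6:122626199-122631064) had 7543, 6698, 9262 and 10654 RPM in Setd1b cKO. In Setd1b WT it had 6475, 8651 and 10362 RPM. Both genotypes covered nearly the same span, and the lowest library of all was Setd1b WT. Dppa3 did not pass the test (limma adjusted p = 0.991), and the 95% interval of its log2 fold change of 0.01 ± 0.29 (SE) ran from -0.63 to 0.66, which leaves room for a change of up to that size either way. Its sign turned with the scaling and with single libraries left out, as given under the processing alternatives. The log2 ratio of Dppa3 to Uhrf1, protein and target, averaged 4.52 ± 0.52 in Setd1b cKO and 4.18 ± 0.49 in Setd1b WT (SD), and the libraries overlapped (difference 0.34, two-sided exact permutation p = 0.514, adjusted p = 0.514).

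**Figure D2:**
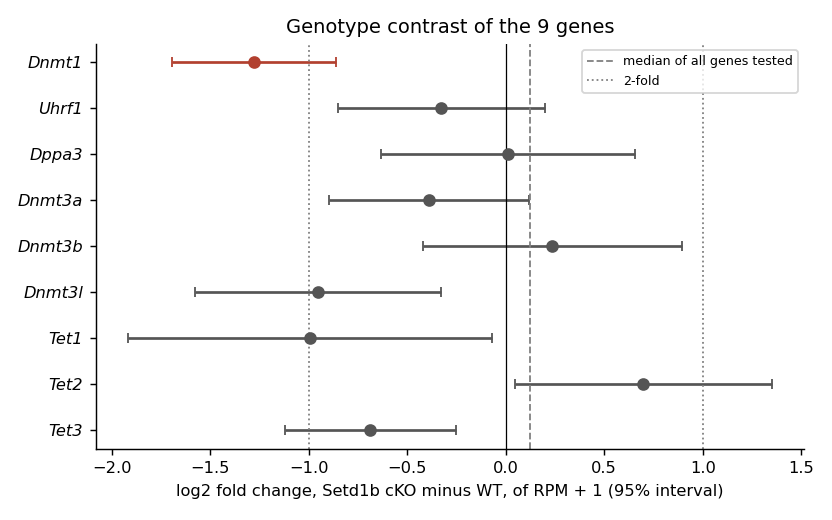
Difference between genotypes for each gene, as log2 fold change on the log2(RPM + 1) scale (Setd1b cKO minus Setd1b WT, points) with its 95% interval from limma (bars), beside the median of all genes tested (dashed line) and a 2-fold difference (dotted lines). Dnmt1 at -1.28, in red, is past the threshold, and the intervals of Dnmt3a, Dnmt3b, Uhrf1 and Dppa3 include 0.

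Among the genes of de novo methylation (Dnmt3a, Dnmt3b and Dnmt3l), none passed the threshold, and Dnmt3l alone had libraries that did not overlap between genotypes. Dnmt3l (plus strand, chr10:78041822-78063622) was at 55.8, 58.8, 40.3 and 28.2 RPM in Setd1b cKO and at 104, 87.1 and 70.5 RPM in Setd1b WT. Every Setd1b cKO oocyte was below every Setd1b WT oocyte, by the margin between 58.8 and 70.5 RPM at the closest. This gave a log2 fold change of -0.95 ± 0.28 (SE, 95% interval -1.58 to -0.33), with a limma adjusted p of 0.0754. With all libraries set to a common median gene, the value was -1.11 and passed the threshold (limma adjusted p = 0.0413), while over all alternatives the adjusted p ran from 0.0192 to 0.244. The lowest came with the libraries that stood apart left out, where the log2 fold change was -0.89 and so under 2-fold. The transcript shares 1789 bases with the Aire transcript of the opposite strand, read at 3.74 to 11.3 RPM, and the use of strand in the counting is not given in the sources used here.

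Dnmt3a (plus strand, chr12:3807030-3914443), the catalytic partner, was at 72.0, 84.1, 69.0 and 52.4 RPM in Setd1b cKO. In Setd1b WT it was at 110, 81.9 and 80.8 RPM. The highest Setd1b cKO oocyte lay above 2 of the 3 Setd1b WT oocytes, so the groups overlapped. Its log2 fold change of -0.39 ± 0.23 (SE, 95% interval -0.90 to 0.12) did not pass the test (limma adjusted p = 0.366). The log2 ratio of Dnmt3l to Dnmt3a was -0.36, -0.51, -0.76 and -0.87 in Setd1b cKO and -0.08, 0.09 and -0.19 in Setd1b WT. Here the genotypes did not overlap (difference -0.56), at the smallest p that the two-sided exact permutation test can give, 0.0571, or 0.0857 adjusted.

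The 150 bases before the RefSeq start nearest to the 5′ end of each transcript differed widely in CpG content. They are shown because, at these nearest starts, Dnmt3l and Dnmt1 are among the CpG-poor of the members and Dnmt3a among the CpG-rich (RefSeq, GRCm38.p6, CG in capitals). Dnmt3a is chr12:3806830-3806979 and Dnmt3l chr10:78042137-78042286, both on the plus strand.
Dnmt3a: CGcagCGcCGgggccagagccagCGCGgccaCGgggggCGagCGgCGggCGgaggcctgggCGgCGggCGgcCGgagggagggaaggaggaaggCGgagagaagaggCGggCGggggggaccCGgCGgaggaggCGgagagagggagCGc
Dnmt3l: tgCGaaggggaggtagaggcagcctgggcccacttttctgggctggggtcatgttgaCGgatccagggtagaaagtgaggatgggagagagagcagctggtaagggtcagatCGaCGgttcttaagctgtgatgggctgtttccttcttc
The Dnmt3a stretch holds 21 CG and the Dnmt3l stretch 4. Over 250 bases the counts were 38 for Dnmt3a, where 98.4% of all RefSeq windows held no more, and 5 for Dnmt3l, where 49.7% did. Another Dnmt3a start, 84714 bases downstream of the 5′ end, had 15 CG in its window. As for Dnmt1, isoforms were merged, so the start that supplied the reads cannot be told.

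Dnmt3b (plus strand, chr2:153632819-153687730) had 7.72, 14.6, 11.1 and 14.8 RPM in Setd1b cKO and 7.61, 12.7 and 9.54 RPM in Setd1b WT. With 78 to 177 reads per library the groups overlapped, and the log2 fold change of 0.24 ± 0.30 (SE, 95% interval -0.42 to 0.89) did not pass the test (limma adjusted p = 0.715). The transcript shares 7549 bases with that of Commd7 on the other strand, which was higher in every Setd1b cKO oocyte (15.2 to 39.8 RPM) than in any Setd1b WT oocyte (6.48 to 10.2 RPM). The part of those reads in the Dnmt3b value was not tested.

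Summed per kilobase, Dnmt1, Dnmt3a, Dnmt3b and Dnmt3l together reached 60.9 ± 6.22 RPKM in Setd1b cKO (range 55.5 to 67.3, SD, n = 4) and 132 ± 2.27 RPKM in Setd1b WT (range 130 to 134, SD, n = 3). Dnmt1 supplied 64.5% ± 5.60 of the sum in Setd1b cKO and 72.2% ± 4.43 in Setd1b WT. The share of Dnmt3l was 24.8% ± 5.67 and 22.2% ± 3.97, and that of Dnmt3a 6.82% ± 0.876 and 4.15% ± 0.684, in the same order. The sums are a description, since Dnmt1 makes up most of them, and the shares depend on the exon lengths used as divisors.

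Among the TET genes, Tet3 supplied most of the transcripts in both genotypes, with 92.6% ± 1.51 of the per-kilobase sum in Setd1b cKO and 94.2% ± 2.73 in Setd1b WT. Tet3 (minus strand, chr6:83362142-83460282) was at 104, 120, 108 and 132 RPM in Setd1b cKO and at 165, 191 and 208 RPM in Setd1b WT. The groups did not overlap. Its log2 fold change was -0.69 ± 0.20 (SE, 95% interval -1.12 to -0.25), and it did not pass the test (limma adjusted p = 0.068, range over the alternatives 0.0201 to 0.212). In none of the alternatives did it exceed 2-fold, with values between -0.84 and -0.61. Among the 9 genes, Dnmt1 alone had a smaller standard error.

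Tet1 (minus strand, chr10:62804570-62865304) had 1.48, 5.52, 5.31 and 1.98 RPM in Setd1b cKO and 11.3, 6.78 and 5.05 RPM in Setd1b WT. Setd1b WT replicate 3 lay below 2 Setd1b cKO oocytes, and the spread within a genotype was wide, with an SD of 59.8% of the mean in Setd1b cKO. With 0.42 as its SE, the log2 fold change of -0.995 had a 95% interval from -1.92 to -0.07 and did not pass the test (limma adjusted p = 0.194).

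Tet2 (minus strand, chr3:133463679-133545099) had 6.83, 5.44, 4.27 and 5.36 RPM in Setd1b cKO. In Setd1b WT it had 3.81, 3.47 and 1.87 RPM. This was the one member whose Setd1b cKO libraries all lay above the Setd1b WT libraries, at read counts of 20 to 69. The log2 fold change was 0.70 ± 0.30 (SE, 95% interval 0.04 to 1.35, limma adjusted p = 0.198). Tet2 took 4.37% ± 1.11 of the TET sum per kilobase in Setd1b cKO and 1.55% ± 0.624 in Setd1b WT.

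**Figure D3:**
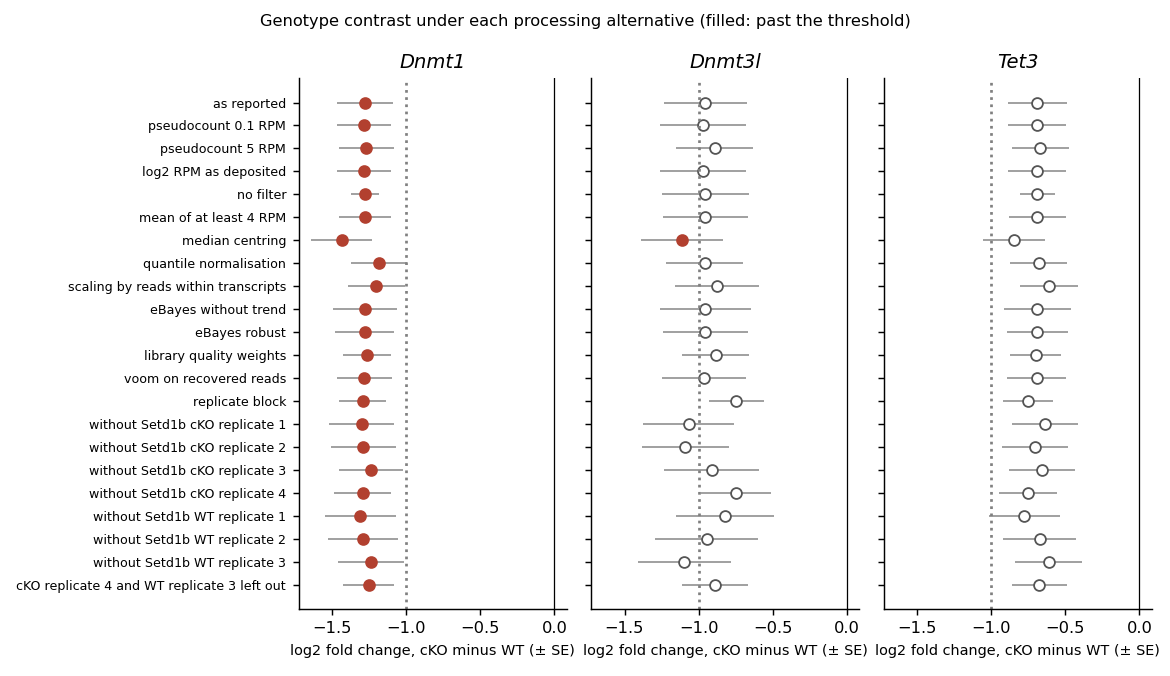
Log2 fold change (Setd1b cKO minus Setd1b WT) ± SE of Dnmt1, Dnmt3l and Tet3 as reported and under 21 processing alternatives, 1 row each, with filled points past the threshold and a dotted line at a 2-fold difference. Dnmt1 stays between -1.44 and -1.18 and is filled throughout, Dnmt3l is filled after median centring, and Tet3 lies between -0.84 and -0.61.

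Starts near the deposited 5′ end were found for 5 of the 8 members that the RefSeq promoter table holds, within 1000 bases. Their 250-base windows ran from 2 CG for Dnmt1 and 5 for Dnmt3l, through 10 for Uhrf1 and 38 for Dnmt3a, to 51 for Tet2. Other starts of these genes differed, such as those with 26 CG for Dnmt1, 30 for Uhrf1 and 15 for Dnmt3a, and the start in use is not known. At least 51 CG were found in 0.067% of all windows, any CG in 92.1%, and the median window held 6. The nearest RefSeq start lay 16630 bases (Dnmt3b) and 18604 bases (Tet3) downstream of the 5′ end of the oocyte transcript and, for Tet1, upstream of it by more than the 1000 bases allowed. Dppa3 has no entry in the promoter table.

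**Figure D4:**
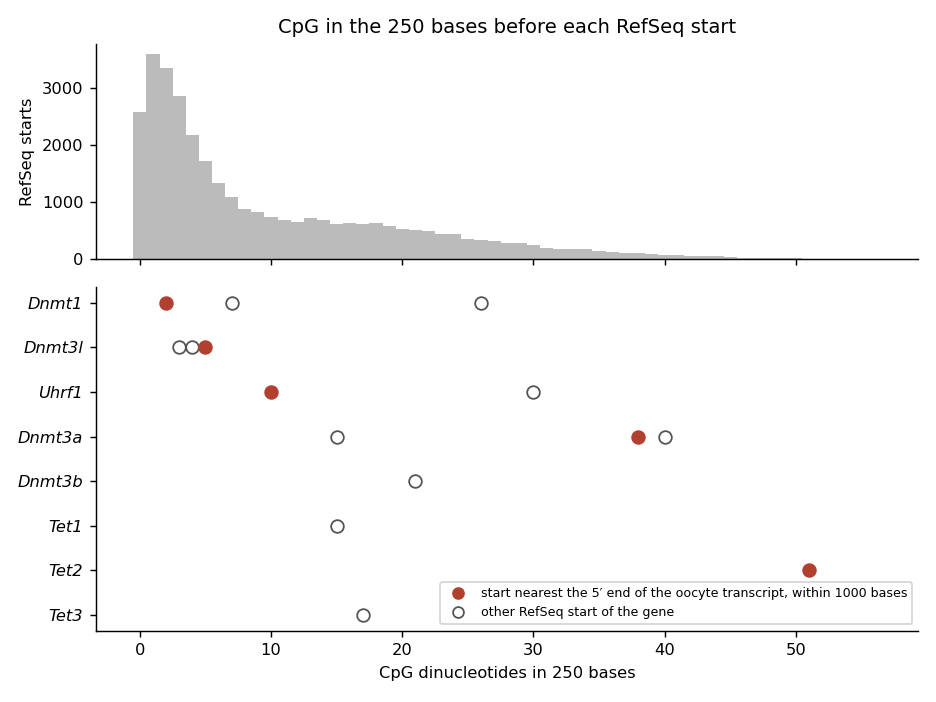
Above, the number of RefSeq starts (32851 in all) by the count of CpG dinucleotides in the 250 bases before them, and below, the same count for each start of the 8 members in the promoter table, filled for the start nearest to the 5′ end of the oocyte transcript within 1000 bases. The filled points of Dnmt1 with 2 and Dnmt3l with 5 lie below the median of 6, and Tet2 with 51 lies at the far right.

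The wider pathway was described with 6 lists that together name 65 genes, of which 61 were in the table and 55 were tested. None passed the threshold in limma in either direction, against 5.71% of all genes tested, and 8 had an unadjusted p under 0.05, against 21.7% of all genes. Fold changes were below 0 for 20 of the 55, and the median was 0.09. With the recovered reads in voom the count past the threshold was 0 as well. With Setd1b cKO replicate 4 and Setd1b WT replicate 3 left out, Nsd1 and Neil3 passed as lower and Gnmt, an enzyme that consumes the methyl donor, as higher. Where a pair of means follows without labels, Setd1b cKO stands first.

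Maintenance and chromatin partners (8 genes tested, median log2 fold change 0.15) were led in abundance by Pcna, the replication clamp, Usp7, a deubiquitinase that stabilises DNMT1 and UHRF1, and Hells, a remodeller needed for methylation of repeats. Usp7 averaged 208 ± 12.2 RPM in Setd1b cKO and 203 ± 9.71 RPM in Setd1b WT (log2 fold change 0.04, limma adjusted p = 0.942). In contrast to Dnmt1, its libraries overlapped, as did those of all 8 genes.

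De novo methylation partners (6 tested, median 0.01) included Kdm1b, a demethylase of histone H3 lysine 4 that oocytes need for imprint methylation, with 143 ± 41.0 and 116 ± 31.3 RPM (log2 fold change 0.29, limma adjusted p = 0.636). Nsd1, a methyltransferase of histone H3 lysine 36, averaged 80.1 ± 29.5 RPM in Setd1b cKO and 163 ± 49.0 RPM in Setd1b WT, without overlap (log2 fold change -1.07 ± 0.37 (SE), limma adjusted p = 0.116). Setd2, which carries out H3K36 trimethylation in oocytes, averaged 56.4 ± 18.0 and 59.9 ± 21.7 RPM with overlap.

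Imprint protectors (7 tested, median 0.01) overlapped between the genotypes in every case, and their most abundant members are given here. Zfp57, which binds methylated imprints, averaged 1618 ± 847 RPM in Setd1b cKO and 1820 ± 783 RPM in Setd1b WT. Its corepressor gene Trim28 averaged 42.4 ± 8.32 and 49.0 ± 1.92 RPM. Nlrp5, a maternal effect gene of the subcortical complex, averaged 978 ± 289 and 1058 ± 239 RPM.

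Genes for removal of oxidised bases (12 tested, median -0.02) had Neil3, a DNA glycosylase, at 123 ± 47.9 RPM in Setd1b cKO and 242 ± 111 RPM in Setd1b WT, with overlapping libraries (log2 fold change -0.94, limma adjusted p = 0.217). Polb, the repair polymerase, averaged 138 ± 14.4 and 132 ± 13.4 RPM, and Apex1, the abasic site endonuclease, 21.1 ± 2.70 and 27.2 ± 5.71 RPM. Methyl-CpG readers (8 tested, median 0.34) were low. Zbtb38 averaged 8.74 ± 1.91 RPM in Setd1b cKO and 4.2 ± 1.37 RPM in Setd1b WT without overlap (log2 fold change 0.92, limma adjusted p = 0.0988), and Zbtb33 and Mbd5 averaged 11.7 to 16.6 RPM in either genotype.

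Methyl donor supply (14 tested, median 0.33) was led by Mat2b, the regulatory subunit of the enzyme that makes S-adenosylmethionine, with 1156 ± 403 RPM in Setd1b cKO and 1199 ± 339 RPM in Setd1b WT. Tyms, thymidylate synthase, averaged 426 ± 105 and 477 ± 80.0 RPM, and Mthfd2, a mitochondrial folate enzyme, 227 ± 72.8 and 173 ± 49.6 RPM. All 3 had overlapping libraries.

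**Figure D5:**
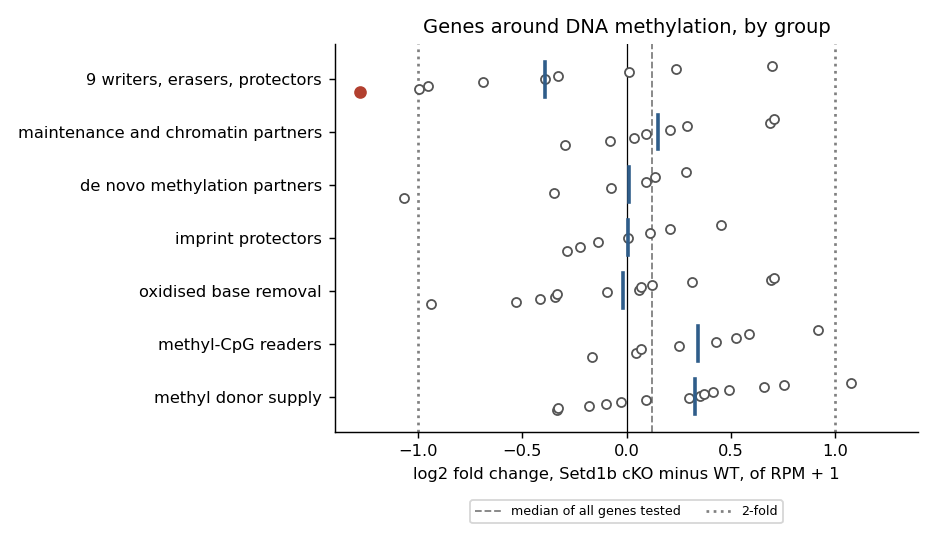
Log2 fold change (Setd1b cKO minus Setd1b WT) of every tested gene of the 9 and of the 6 surrounding lists, 1 point per gene, with the list median as a blue bar, the median of all genes tested as a dashed line and a 2-fold difference as dotted lines. The 55 surrounding genes lie between -1.07 and 1.08 with none past the threshold, and Dnmt1 at -1.28, in red, lies below all of them.

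The profiles of 4 genes were closest to that of Dnmt1 over the 7 libraries, by the mean absolute difference of log2(RPM + 1) centred on each gene's mean, among 5035 named genes that averaged 16 RPM or more. They were E330034G19Rik (0.0603), Rnf141 (0.070), E330011O21Rik (0.0812) and Mos (0.0991). Mos, the kinase that holds the egg at metaphase II, averaged 191 ± 19.0 RPM in Setd1b cKO and 486 ± 73.3 RPM in Setd1b WT. The log2 fold changes of the 4 genes ran from -1.34 to -1.16, around that of Dnmt1, as the choice by profile requires.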

How the data were processed

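The authors amplified cDNA of single GV oocytes (SMARTer Ultra Low kit), sequenced single reads on a HiSeq, trimmed with trim galore, aligned with Hisat to GRCm38 and kept alignments of high mapping quality, so that near-identical gene copies lose reads. The deposited values are log2 RPM over oocyte transcripts with merged isoforms, scaled by the authors to mapped reads in SeqMonk, with 0.9 read in place of 0. From them RPM and whole reads were recovered (100% whole within a relative tolerance of 0.0001).

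Genotypes were compared with limma 3.58.1 (R 4.3.3) on log2(RPM + 1), with a trend in eBayes and Benjamini-Hochberg adjustment over 18179 transcripts that reached 1 RPM in 3 libraries or more, called genes throughout. The study used a count model. Such fold changes understate those of low genes. A gene passed at adjusted p under 0.05 and over 2-fold. Ratios were tested with exact permutations of the library labels (35 in all) in scipy 1.17.1. Depth limits the low genes: 3 reads amount to 0.231 to 0.350 RPM, a floor for counting error only, without molecular identifiers. No pair of libraries agreed within sampling noise.

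Members and lists were chosen with earlier results of these data known. Named in the text were the members, Setd1b, the 3 most abundant genes of each of the 6 pathway lists, any gene of these lists past the threshold, and the 5 genes most like Dnmt1, of which 1 is not reported here. Alternatives covered pseudocount, filter, scaling, variance model, library weights, voom on reads, a replicate block, each library left out and, added after seeing the data, Setd1b cKO replicate 4 and Setd1b WT replicate 3 left out together. Nr5a2, Inha, Amh, Foxl2, Cyp19a1, Kitl, Cd68 and Pecam1 of the marker lists were named after their values were seen.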

Additional observations from a re-analysis of the deposited data

How the results depend on the processing

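Dnmt1 passed the threshold in all 21 alternatives (-1.44 to -1.18, limma adjusted p 0.000463 to 0.0361), and with each library left out its value ran from -1.31 to -1.24. Of 189 alternative values for the 9 genes, 183 kept their direction and side of the threshold. Dnmt3l passed after median centring (-1.11), which made 2 members lower in place of 1. With a library left out, Uhrf1 ran from -0.48 to -0.19, Dnmt3a from -0.49 to -0.25 and Dnmt3b from 0.08 to 0.42. Tet1 ran from -1.23 to -0.72 and Tet2 from 0.47 to 0.84 in the same way. Both also depended on the pseudocount: Tet1 was at -0.57 with 5 RPM and -1.26 on the deposited log2 RPM, and Tet2 at 0.38 and 0.89. Dppa3 turned to -0.145 after median centring and to -0.10 with the replicate block, and ran from -0.17 to 0.17 with a library left out (-0.04 without Setd1b cKO replicate 3, -0.10 without Setd1b cKO replicate 4, -0.17 without Setd1b WT replicate 1). The 3 ratios kept their direction in 12 alternatives each, and the design could not bring any to p under 0.05. The difference in the ratio of Dppa3 to Uhrf1 was unstable in size, from 0.07 to 0.55 with a library left out.

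Of the surrounding lists, library quality weights passed 1 higher (Gnmt, 1.21) and 2 lower genes (Nsd1, -1.002, and Neil3, -1.04). The replicate block, in which Setd1b cKO replicate 4 has no partner and drops out of the contrast, passed 2 higher (Gnmt and Uhrf2), and leaving out single libraries 0 to 1 (Uhrf2, 1.28, without Setd1b cKO replicate 4). Leaving out Setd1b cKO replicate 4 and Setd1b WT replicate 3 together, added after seeing the data, passed 1 higher (Gnmt, 1.254) and 2 lower genes (Nsd1, -1.001, and Neil3, -1.11). Uhrf2 and Gnmt were named after their values were seen. The causes were not tested. Same-numbered libraries deviated together with correlations of 0.192, 0.295 and -0.129, within the range of -0.551 to 0.608 seen for other pairs. These values show no clear pairing by number. They cannot exclude one, because the deviations are taken from the means of few libraries. The block gave 924 higher and 479 lower genes in all.

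Over all genes, 683 were higher and 355 lower. These counts were 315 and 238 with a pseudocount of 5 RPM, 174 and 129 without a filter, 1197 and 554 with library weights and 443 and 328 with voom. They were 836 and 310 with scaling by the reads within transcripts, 1029 and 498 with both libraries that stood apart left out, 458 and 531 after median centring, 428 and 442 after quantile normalisation, and 171 to 850 and 109 to 437 with a library left out. Higher genes made up 65.8% as reported, 46.3% after median centring, 49.2% after quantile normalisation and 72.9% with scaling by the reads within transcripts, and the median log2 fold change moved from 0.12 to -0.03, 0.01 and 0.20. The sum over several transcripts of a gene was not run, because each member had 1.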

Other observations

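In the surrounding lists, 8 of the 55 genes tested had libraries that did not overlap between genotypes, against 20.3% of all genes tested. Besides Nsd1 and Zbtb38, described above, 6 fell outside the naming rule and were chosen after their values were seen. Ehmt1, a methyltransferase of histone H3 lysine 9, was below Setd1b WT in every Setd1b cKO library, with 17.1 ± 1.72 RPM against 21.9 ± 0.172 RPM (log2 fold change -0.35, limma adjusted p = 0.388). The other 5 were above Setd1b WT in every Setd1b cKO library. Gnmt, an enzyme that uses up S-adenosylmethionine, had 5.64, 4.04, 9.32 and 4.66 RPM in Setd1b cKO and 2.51, 1.47 and 2.62 RPM in Setd1b WT (log2 fold change 1.08, limma adjusted p = 0.080). Parp1, a sensor of DNA breaks in base excision repair, averaged 27.8 ± 4.59 RPM in Setd1b cKO and 16.5 ± 1.51 RPM in Setd1b WT (log2 fold change 0.71, limma adjusted p = 0.0953). Mthfd1, a cytosolic folate enzyme, averaged 30.6 ± 4.43 and 19.1 ± 3.46 RPM in the same order (log2 fold change 0.66, limma adjusted p = 0.119). Mbd1, a methyl-CpG binding protein gene, averaged 6.87 ± 1.29 and 4.24 ± 0.865 RPM (log2 fold change 0.59, limma adjusted p = 0.246). Mtr, methionine synthase, averaged 13.6 ± 1.42 and 9.96 ± 1.64 RPM (log2 fold change 0.42, limma adjusted p = 0.346). None of the 8 genes passed the threshold in the fit as reported, and the alternatives in which some did are given with the processing.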
